A study of Homo sapiens with 6 samples.

Results

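The histone genes described here are the 87 protein-coding genes of the authors' expression table whose names start with HIST and a cluster number, or with H2AF, H3F or H1F, out of 58735 genes in all and 19951 protein-coding ones. Of the 87, 71 have HIST names, the older names of the replication-dependent genes for the linker histone H1 and the core histones H2A, H2B, H3 and H4. The other 16 have variant names. RNA was sequenced from HEK293 cells, a line derived from human embryonic kidney, that stably expressed the focal adhesion protein tensin 2 with 1 tyrosine changed, to glutamate in Y483E or to phenylalanine in Y483F, with 3 libraries of each. Both lines carried a mutant tensin 2, and no line with the unmutated protein was analysed here. Whether each form was carried by a single clone, and which promoter drove it, the sources used here do not say. A trait of the cell lines as such therefore cannot be told apart from the mutation's effect. The labels call the replicates biological without naming separate cultures, and p-values then measure only the spread between these libraries, which may be technical.

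Replication-dependent histone genes are switched on in S phase, when new chromatin is packed, and their mRNAs are the known exception to polyadenylation in animal cells. They end just after a conserved stem-loop, to which the protein SLBP binds, where other mRNAs have a poly-A tail. Variant histones such as H2A.Z, H3.3 and macroH2A replace the standard ones outside replication, and their genes make ordinary polyadenylated mRNAs through the cell cycle. Some HIST genes are also known to yield polyadenylated transcripts that read on past the stem-loop. Here mRNA was taken from total RNA with poly-T beads, so a value for a HIST gene is the level of RNA that this selection kept and is not the level of all its mRNA.

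The stem-loops are shown first because they are the known mark of a replication-dependent histone mRNA end. A match was a 5′ arm of GGNNCT, a loop of TTTN and a 3′ arm of AGNNCC in direct succession, on the sense strand, in a protein-coding transcript of GENCODE 29, whose gene IDs, positions and strands equalled those of the authors' table for all 87 genes. It was found in 31 of 71 HIST genes (43.7%), in 1 of 16 variants (6.25%) and in 52 of 19684 genes with a protein-coding transcript (0.264%). The 1 variant was H2AFX, the gene of H2A.X, which is phosphorylated at DNA breaks. As with the HIST genes, the H2AFX values below are of RNA that the poly-T selection kept and may not be of all its mRNA. The windows below run 5′ to 3′ on GRCh38, with the stem-loop of 16 bases in capitals, for the 6 most abundant HIST genes with a match, for HIST1H2AG, whose 3′ arm differs, and for H2AFX:
HIST3H2A (chr1:228457362-228457391, minus strand): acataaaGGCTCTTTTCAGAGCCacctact
HIST1H2AI (chr6:27808640-27808669, plus strand): aaccaaaGGCTCTTTTCAGAGCCacctaca
HIST1H2BD (chr6:26158580-26158609, plus strand): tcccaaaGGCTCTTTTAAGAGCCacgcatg
HIST1H3H (chr6:27810509-27810538, plus strand): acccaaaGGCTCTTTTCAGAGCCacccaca
HIST1H2AG (chr6:27133508-27133537, plus strand): aaccaacGGCTCTTTTCAGGGCCacccacg
HIST1H4I (chr6:27139647-27139676, plus strand): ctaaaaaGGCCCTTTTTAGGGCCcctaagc
HIST1H4H (chr6:26285124-26285153, minus strand): aaccaaaGGCCCTTTTCAGGGCCgcccact
H2AFX (chr11:119094891-119094920, minus strand): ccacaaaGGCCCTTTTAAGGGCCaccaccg

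All 8 H4 genes with a match had the arms GGCCCT and AGGGCC, and so did H2AFX. Of the 23 H2A, H2B and H3 genes with a match, 22 had GGCTCT and AGAGCC. The exception was HIST1H2AG, whose 3′ arm was AGGGCC. Models without a match do not show that the gene lacks the stem-loop, since for 34 HIST genes, HIST1H2BK and HIST1H1C among them, the models held the coding sequence only. Of the 31 HIST genes with a match, 22 had a transcript model that went on for over 100 bases after it. A poly-A signal (AATAAA or ATTAAA) was in the last 50 bases of a transcript for 20 of the 31. The search did not ask whether the signal lay after the stem-loop. In HIST1H4J, whose model ends 6 bases after the stem-loop, the signal lies before it.

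HIST genes were low as a group and very uneven. Values are FPKM, fragments scaled to the length of the gene model and the depth of the library. Model lengths differ widely, with 381 bases for HIST1H2BK and 17730 bases for H2AFY, so ranks and shares between genes depend on them. H3F3B, with 72369 reads over all libraries and 6134 bases, stands below H2AFX, with 34831 reads and 1614 bases. The median HIST gene had a mean level of 0.34 FPKM over the 6 libraries, against 27.4 FPKM for the median variant. The 71 HIST levels summed to 353 FPKM and the 16 variant levels to 890 FPKM. HIST1H2BK, an H2B gene, held 53.8% of the HIST sum by itself, and with HIST3H2A and HIST1H1C the share was 75.9%. By reads HIST1H2BK held a smaller share, for example 1403 of the 4464 HIST reads of Y483E replicate 1. HIST genes took between 0.0228% and 0.0249% of the reads of a library, and the variants between 0.266% and 0.289%. In bulk RNA, fewer cells in S phase and less histone mRNA per cell cannot be told apart.

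**Figure D1:**
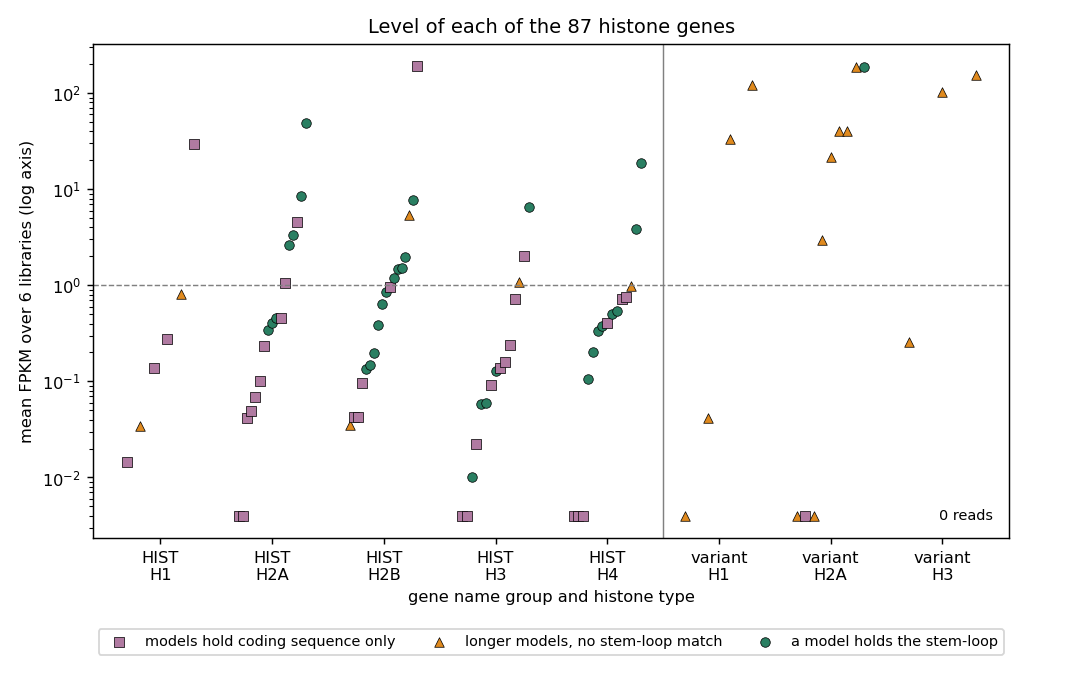
Mean FPKM over 6 libraries (log axis) of each of the 87 histone genes, by name group and histone type, with symbols for what the gene models hold; genes with 0 reads are drawn on the lowest line and the dashed line marks 1 FPKM. Most HIST genes lie under 1 FPKM, with HIST1H2BK at 189.5 FPKM far above the other H2B genes, while 10 of 16 variants lie above that line.

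A mean of at least 1 FPKM, the level needed to enter the test, was reached by 19 of 71 HIST genes and by 10 of 16 variants. Of the 19, 12 had models with the stem-loop, 5 had coding-only models and 2 had longer models without a match. Among HIST genes with a poly-A signal near a transcript end 11 of 22 reached it, and among the others 8 of 49. These others include all 34 genes with coding-only models, of which 5 reached it. This is a description of gene models and levels, and coding-only models hold no bases after the stop codon. The 52 HIST genes under 1 FPKM added up to 12.1 to 15.0 FPKM in a library, which rested on 188 to 289 reads.

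No read was assigned to 11 genes in any library. They were HIST1H2AD, HIST1H2AK, HIST1H3D, HIST1H4F, HIST1H4G, HIST1H4L and HIST2H3PS2, and the variants H1FOO, an oocyte linker histone, and H2AFB1, H2AFB2 and H2AFB3. With 0 reads seen, up to 3 may be allowed for per library, a limit for counting error only. For 6 of the 11, at least 80% of the model lay in or was shared with other genes, as with HIST1H2AK, all of whose bases lie in exons of HIST1H2BN on the other strand. Over all 87, 19 shared at least 50% of their windows of 100 bases with other genes, among them the copies HIST2H2AA3 and HIST2H2AA4, so their values are uncertain. Of these 19, HIST1H2AI, which shares 57.7% of its windows with HIST1H2AJ, was the 1 that reached 1 FPKM.

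Among the H2B genes, HIST1H2BK (ENSG00000197903, chr6:27146418-27146798, minus strand, coding sequence of 381 bases) had 206, 171 and 186 FPKM in Y483E replicates 1, 2 and 3, and 192, 183 and 199 FPKM in Y483F. The lines overlapped, with means of 188 ± 17.6 and 191 ± 7.61 FPKM (SD, n = 3 each). It shares 28.4% of its windows with H2BFS. Next among H2B genes came HIST1H2BD at 7.64 FPKM, HIST1H2BJ at 5.45 FPKM and HIST2H2BE at 1.98 FPKM, so the second H2B gene lay far below the first.

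HIST3H2A (ENSG00000181218, chr1:228456979-228457873, minus strand), an H2A gene outside the large cluster on chromosome 6, had 48.0, 52.0 and 53.2 FPKM in Y483E and 47.8, 44.2 and 47.2 FPKM in Y483F. All 3 Y483E values were above those of Y483F, with replicate 1 of Y483E only just so. It was followed by HIST1H2AI at 8.40 FPKM, HIST2H2AC at 4.53 FPKM and HIST1H2AC at 3.33 FPKM. The linker histone gene HIST1H1C (ENSG00000187837, chr6:26055787-26056428, minus strand) held 95.8% of the H1 sum, at 36.9, 26.6 and 30.9 FPKM in Y483E and 29.5, 26.2 and 26.5 FPKM in Y483F. Its lines overlapped, and HIST1H1E, HIST1H1B and HIST1H1D, further H1 genes, had means of 0.813, 0.276 and 0.137 FPKM.

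In FPKM, the leading H3 and H4 genes were lower than those of H1, H2A and H2B. By reads over all libraries, HIST1H4I (2777) lay above HIST1H1C (2160). HIST1H3H led the H3 genes with 6.42, 6.55 and 7.02 FPKM in Y483E and 6.09, 6.02 and 7.23 FPKM in Y483F, ahead of HIST1H3B at 2.02, HIST1H3E at 1.08 and HIST2H3D at 0.714 FPKM. HIST1H4I (ENSG00000276180, chr6:27138588-27139881, plus strand) led the H4 genes with 20.01, 16.01 and 17.99 FPKM in Y483E and 19.7, 18.2 and 20.6 FPKM in Y483F, and HIST1H4H, HIST1H4C and HIST1H4D followed at 3.82, 0.98 and 0.751 FPKM. In both leading genes the lines overlapped. HIST1H4I lies, on the other strand, inside the RefSeq span of HIST1H2BK, which reaches from 27138293 to 27146858 on chromosome 6 of GRCh38.p14 and is 8566 bases long, against the 381 bases counted here. Over the 6 libraries both genes moved alongside (Pearson r 0.942, Spearman rho 0.886, n = 6, a pair chosen after its values were seen). Whether the reads were counted by strand is not known, so reads of HIST1H2BK transcripts that run through HIST1H4I cannot be told apart from its own.

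**Figure D2:**
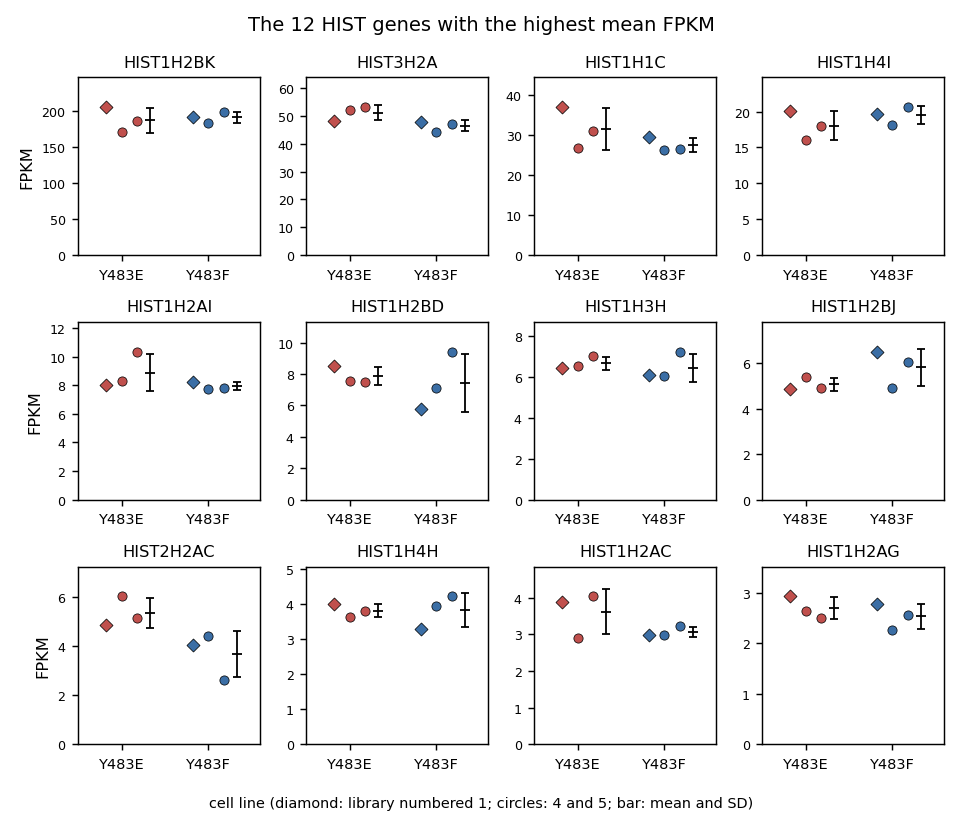
FPKM in each library of the 12 HIST genes with the highest mean, for Y483E and Y483F, each panel with its own axis from 0; diamonds are the libraries numbered 1, circles those numbered 4 and 5, and bars the mean and SD of 3. The lines overlap in all panels but HIST3H2A and HIST2H2AC, where the Y483E libraries lie above.

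Many HIST genes stand head to head, often an H2A gene with an H2B gene, whose proteins pair in the nucleosome. There were 12 pairs whose gene models start within 500 bases of each other, at distances of 219 to 357 bases. Of these pairs, 11 joined an H2A with an H2B gene. Coding-only models start at the start codon, so distances between transcript starts can differ. The remaining pair, at 357 bases, was HIST1H3J with HIST1H2BO, which also paired with HIST1H2AM. The HIST1H3J model shares 44.6% of its exon bases with HIST1H2AM. RefSeq starts HIST1H3J at 27890826, not at 27893106 as here, so by RefSeq this pair lies beyond 500 bases. In the 11 pairs with reads at both genes the higher gene exceeded the lower by 1.14-fold to 179-fold. The narrowest ratio is that of HIST1H2AJ and HIST1H2BM, which had 2 reads each over all 6 libraries, so it carries no information. HIST1H2BK at 189.5 FPKM faced HIST1H2AH at 1.06 FPKM over 331 bases. HIST3H2A at 48.7 FPKM faced HIST3H2BB at 1.18 FPKM over 234 bases, a ratio of 41.2. HIST1H2AI at 8.40 FPKM faced HIST1H2BL at 0.859 FPKM over 268 bases, a ratio of 9.79. Of the other pairs with both genes above 1 FPKM, HIST1H2BJ and HIST1H2AG, HIST1H2BC and HIST1H2AC, and HIST2H2BE and HIST2H2AC differed 2.08-fold, 2.21-fold and 2.29-fold. By FPKM, H2A was the higher gene in some pairs and H2B in others, and the order depends on model length. In reads over all libraries HIST1H2BJ (596) lay below HIST1H2AG (677), and HIST2H2BE (499) above HIST2H2AC (205), each the reverse of FPKM. HIST1H2BC (143) stayed below HIST1H2AC (636), and HIST3H2A had 5034 reads against 325 for HIST3H2BB.

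The promoter of HIST1H2BK is shown because its 300 bases lie between the model starts of the pair with the widest ratio. Both gene models hold the coding sequence only. The promoter reaches past both RefSeq starts, 27146858 for HIST1H2BK and 27147106 for HIST1H2AH. It is the RefSeq window on GRCh38.p14, from 250 bases before to 50 bases after the start, with matches to CCAAT and TATAAA on either strand in capitals, overlapping ones merged:
HIST1H2BK promoter (chr6:27146809-27147108, minus strand): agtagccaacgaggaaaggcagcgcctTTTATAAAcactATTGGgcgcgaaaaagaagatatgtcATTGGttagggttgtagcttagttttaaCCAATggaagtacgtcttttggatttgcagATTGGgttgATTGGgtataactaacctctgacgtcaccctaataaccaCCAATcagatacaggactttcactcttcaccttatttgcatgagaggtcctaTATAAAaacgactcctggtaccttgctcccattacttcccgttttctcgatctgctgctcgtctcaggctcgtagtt
It held 6 matches to CCAAT and 3 to TATAAA, counting both strands. RefSeq promoters were matched for 75 of the 87 genes. CCAAT was found in 51 of 61 HIST promoters (83.6%), 11 of 14 variant promoters (78.6%) and 35.7% of all 27305 promoters of the same length. TATAAA was found in 65.6% of the HIST, 28.6% of the variant and 11.95% of all promoters. A match is a description of the letters and not a site. Some promoters were counted more than once. HIST1H2AD and HIST1H3D have the same window, those of H2AFB1, H2AFB2 and H2AFB3 have the same letters, and windows of head-to-head genes can overlap.

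**Figure D3:**
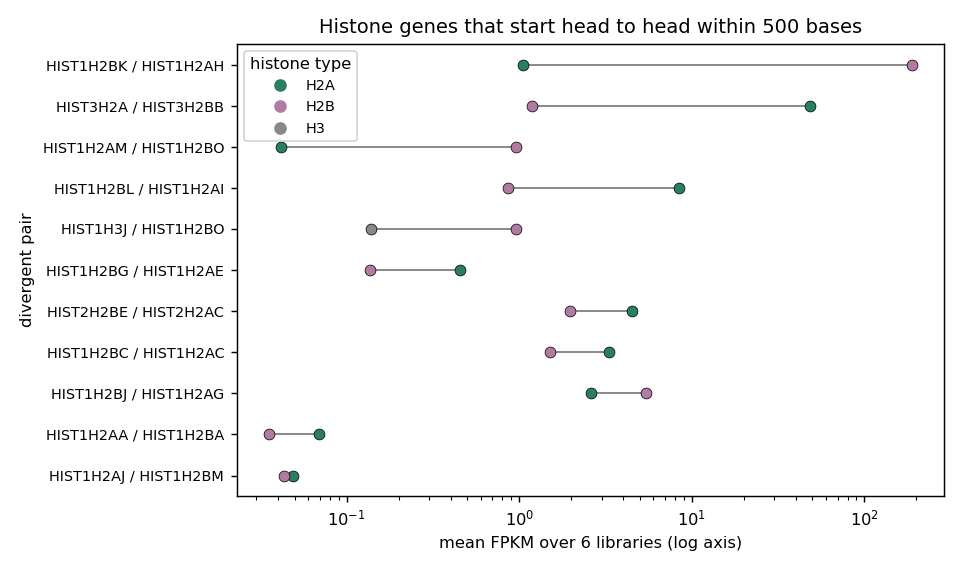
Mean FPKM over 6 libraries (log axis) of both genes of each of the 11 head-to-head pairs with reads at both, coloured by histone type. HIST1H2BK and HIST1H2AH are the pair farthest apart, at 189.5 and 1.06 FPKM.

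The median variant gene lay above the median HIST gene. H2AFX (ENSG00000188486), H2AFZ, which codes for H2A.Z, and H3F3A, the first of the H3.3 genes, had means of 187, 185 and 153 FPKM. H1FX, a linker histone, and H3F3B, the other H3.3 gene, followed at 122 and 103 FPKM. H2AFY2 and H2AFY, the macroH2A genes, stood at 40.8 and 21.8 FPKM, H2AFV, the second H2A.Z gene, at 40.1 FPKM, the linker histone gene H1F0 at 33.1 FPKM and H2AFJ at 2.97 FPKM. H2AFX with H2AFZ, and H2AFY2 with H2AFV, were neighbours in this order whose libraries overlapped. Below 1 FPKM were H3F3C, an H3.3-like gene with 32 reads in all, and H1FNT, a testis linker histone with 6.

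Between the lines, no histone gene passed the test. With limma on log2(FPKM + 1), 0 of 19 HIST genes and 0 of 10 variants had an adjusted p under 0.05, where 0% of all 12833 genes tested did. At an unadjusted p under 0.05 there were 2 HIST genes and 4 variants, all higher in Y483E, beside 12.2% of all genes in either direction and 6.51% in that one. On the reads recovered from the FPKM values, edgeR called 0 of 24 HIST genes and 0 of 10 variants, where it called 0.0438% of all genes. At an unadjusted p under 0.05 in edgeR were 0 of the HIST genes and 3 of the variants, beside 13.4% of all genes. DESeq2 called 0 of the 8 HIST genes and 0 of the 10 variants to which it gave an adjusted p, where it called 1.29%. Of the 64 HIST genes and 12 variants with a DESeq2 p, 0 and 4 had an unadjusted p under 0.05, beside 5.29% of all genes.

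The HIST genes lay on both sides of 0. Of the 19 tested, 10 were higher in Y483E, a share close to the 52.8% of all genes, and their median log2 difference was 0.0014 against 0.0070 for all genes. HIST2H2AC (ENSG00000184260, chr1:149886975-149887364, plus strand) stood at 4.88, 6.05 and 5.15 FPKM in Y483E and 4.04, 4.42 and 2.65 FPKM in Y483F, and the lines did not overlap. Its log2 difference was 0.45 ± 0.15 (SE), with an adjusted p of 0.339 in limma, and it rests on 21 to 55 reads a library and shares 17.2% of its windows with HIST2H2AA3 and HIST2H2AA4. HIST3H2A differed by 0.14 ± 0.054 (SE), with an adjusted p of 0.385 in limma. These 2 were the HIST genes whose lines did not overlap with Y483E above, where 9.72% of all genes did so, and none of the 19 had Y483F above, where 7.37% did.

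Further HIST genes did not pass the threshold. HIST1H1C and HIST1H2AC lay at 0.18 ± 0.11 and 0.18 ± 0.10 (log2, SE) in the direction of Y483E. In the direction of Y483F lay HIST2H2BE at -0.17 ± 0.12, HIST1H2BJ at -0.16 ± 0.095 and HIST1H4I at -0.11 ± 0.084. Adjusted p in limma was between 0.516 and 0.618 for these 5. For HIST1H2BK the difference was -0.03 ± 0.073. The summed HIST level was 378, 331 and 357 FPKM in Y483E and 351, 336 and 361 FPKM in Y483F, and these overlapped. The H2A sum, of which HIST3H2A makes up 68.8%, was 71.0, 75.4 and 78.1 FPKM in Y483E and 68.6, 64.7 and 67.1 FPKM in Y483F, and the H2B sum overlapped at 209.8 ± 17.8 and 214.9 ± 9.39 FPKM (SD, n = 3).

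All 10 tested variants were higher in Y483E, although H2AFZ, H3F3A and H3F3B turned to -0.0064, -0.0021 and -0.011 (log2) after quantile normalization, and over all genes 52.8% were higher. Their median log2 difference was 0.062. The level of all 16 variants summed to 901, 909 and 937 FPKM in Y483E and 894, 843 and 854 FPKM in Y483F, the lowest Y483E library lying just above the highest of Y483F. H2AFX stood at 194, 192 and 206 FPKM in Y483E and 184, 171 and 177 FPKM in Y483F, a log2 difference of 0.15 ± 0.050 (SE). H1FX stood at 124, 133 and 128 FPKM in Y483E and 108, 117 and 120 FPKM in Y483F, a log2 difference of 0.16 ± 0.054. In both genes every Y483E library was above every Y483F library. This held for 4 of the 10 tested variants, beside 9.72% of all genes. H2AFJ, a variant close in sequence to standard H2A, stood at 3.32, 3.44 and 3.23 FPKM in Y483E and 2.77, 2.55 and 2.52 FPKM in Y483F. H2AFY stood at 22.9, 22.7 and 22.2 FPKM in Y483E and 21.8, 20.6 and 20.6 FPKM in Y483F. These also did not overlap, with log2 differences of 0.26 ± 0.061 and 0.10 ± 0.042 and, in the order H2AFX, H1FX, H2AFJ and H2AFY, adjusted p of 0.327, 0.35, 0.26 and 0.406 in limma. H1FX shares 22.9% of its exon bases with H1FX-AS1, and H2AFY 30.9% with genes on the other strand, so part of their reads is uncertain.

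The other 6 variants overlapped between the lines. H2AFZ stood at 188, 188 and 189 FPKM in Y483E and 189, 179 and 179 FPKM in Y483F. H3F3A stood at 151, 151 and 165 FPKM in Y483E and 166, 144 and 144 FPKM in Y483F, so that the highest value of each was from a different replicate. The log2 differences of these and of H3F3B, H2AFV, H1F0 and H2AFY2 were between 0.019 and 0.068, with adjusted p from 0.642 to 0.895 in limma. H3F3C, at 0.106, 0.162 and 0.205 FPKM in Y483E and 0.0552, 0.473 and 0.558 FPKM in Y483F, rested on 1 to 12 reads a library. It was below the level tested in limma and edgeR, and DESeq2 gave it no adjusted p. The authors' deposited table, which lists genes at an unadjusted p under 0.05, lists H2AFX, H1FX, H2AFJ and H2AFY with log2 fold changes of 0.16, 0.16, 0.35 and 0.10 and adjusted p from 0.188 to 0.435, and lists no HIST gene.

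**Figure D4:**
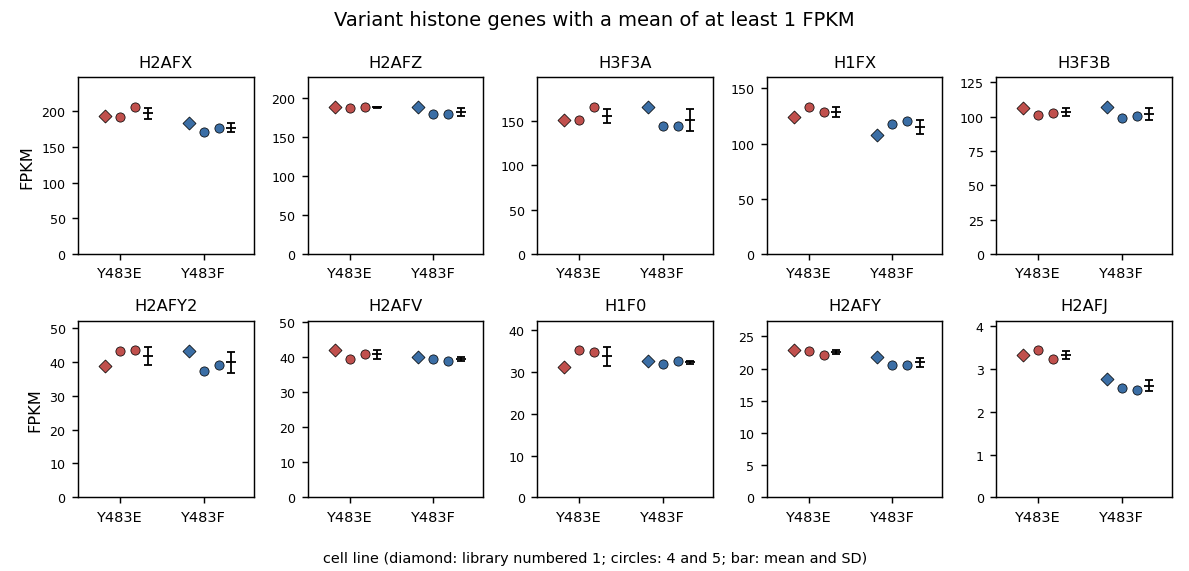
FPKM in each library of the 10 variant histone genes that averaged 1 FPKM or more, each panel with its own axis from 0; diamonds are the libraries numbered 1, circles those numbered 4 and 5, and bars the mean and SD of 3. H2AFX, H1FX, H2AFJ and H2AFY have all 3 Y483E libraries above all 3 Y483F libraries, as do 9.72% of all genes tested.

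The libraries of each line are numbered 1, 4 and 5 by the submitters, replicates 1, 2 and 3, without a word on what these numbers stand for. Between the libraries numbered 1, 5 of 10 variants were higher in Y483E and the median log2 difference was 0.031. In those numbered 4 and 5 all 10 were higher and the median was 0.12. Of all 12833 genes tested, 6221 were higher between the libraries numbered 1 (median -0.0043) and 7013 in the others (median 0.0155). H2AFY2 differed by -0.15 between the libraries numbered 1 and by 0.18 in the others, and H3F3A by -0.14 and 0.13. H2AFX, H1FX, H2AFJ and H2AFY were higher in Y483E in both sets, by 0.076, 0.19, 0.20 and 0.064 and by 0.19, 0.14, 0.29 and 0.12. Whether the difference between the lines itself differs with the number was not tested.

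In the libraries numbered 4 and 5 alone, edgeR called 5 of 10 variants higher in Y483E and 0 of 27 HIST genes, where it called 15% of all genes. The 5 were H2AFX (adjusted p 0.0058), H2AFY2 (0.0204), H1FX (0.0248), H2AFY (0.0401) and H2AFJ (0.0407). In the same libraries 0 of 10 and 0 of 19 were past the threshold of limma, where it called 5.71% of all genes, and 8 variants and 2 HIST genes had an unadjusted p under 0.05, as did 28.2% of all genes. With array weights over all 6 libraries, limma called the variants H2AFJ, H2AFX and H2AFY and the HIST genes HIST2H2AC and HIST3H2A higher in Y483E, where it called 14.7% of all genes. The HIST median was 0.066 between the libraries numbered 1, with 13 of 19 higher, and -0.045 in the others, with 8 of 19 higher. Over all genes these medians were -0.0043 and 0.0155.

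**Figure D5:**
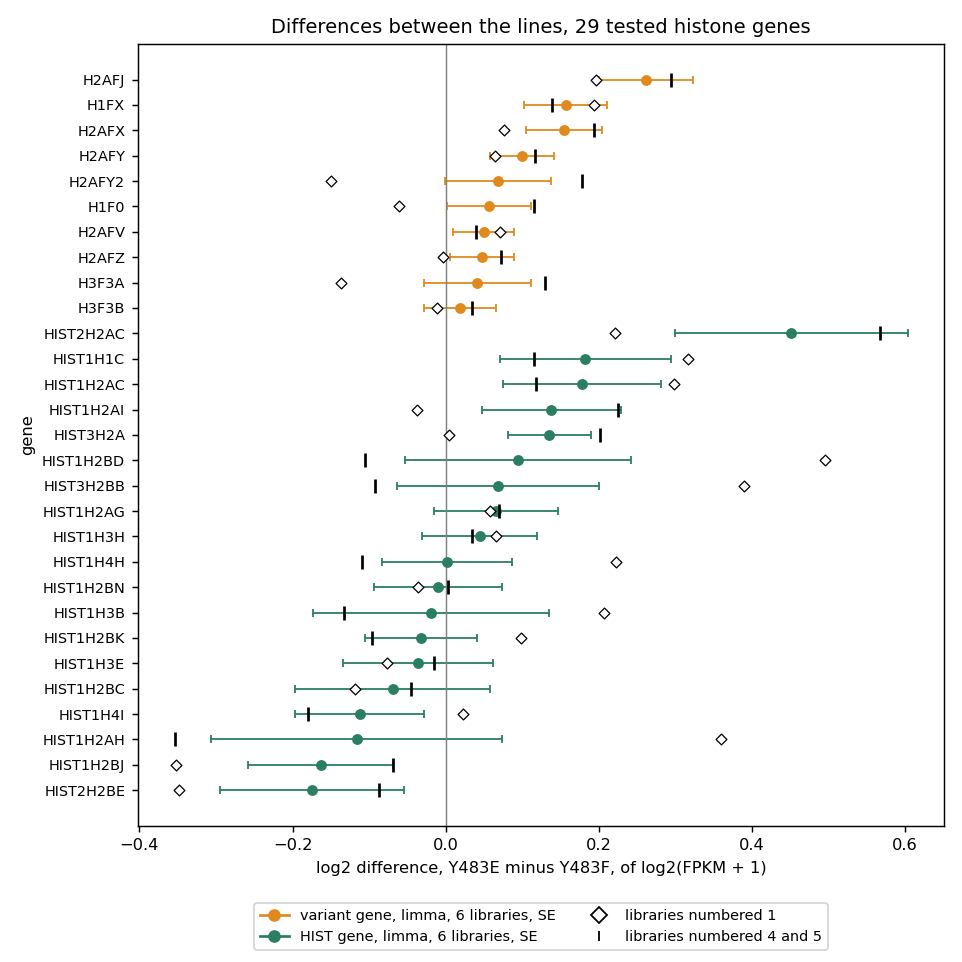
Log2 difference of Y483E minus Y483F on the log2(FPKM + 1) scale for the 29 tested histone genes, variants in orange and HIST genes in green, with limma's SE over 6 libraries; open diamonds are the difference between the libraries numbered 1 and ticks that in those numbered 4 and 5. All 10 variants lie to the right of 0 over 6 libraries, and the HIST genes lie on both sides.

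RNAs that lack a poly-A tail, a list of small nuclear, small nucleolar and related RNAs, were also measured. They summed to 472, 474 and 394 FPKM in Y483E and 490, 650 and 635 FPKM in Y483F, and 66 of the 95 tested were lower in Y483E (median log2 difference -0.28). The 52 low HIST genes summed to 13.5, 13.4 and 14.0 FPKM in Y483E and 12.1, 15.0 and 13.2 FPKM in Y483F and overlapped. The 13 mitochondrially encoded genes had a median of -0.69, and their sum was lowest in Y483E replicate 3 and highest in Y483F replicates 2 and 3. Between the libraries numbered 1 their median was 0.12, in those numbered 4 and 5 it was -1.11, and without Y483E replicate 3 it was -0.39. The part of these differences in the values of the histone genes was not tested.

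The machinery that makes histone mRNA was present in both lines. Of 19 genes for transcription and 3′ processing of these mRNAs, 8 were higher in Y483E, the median log2 difference was -0.011, and 0 were past the threshold in limma, and also 0 at an unadjusted p below 0.05. SLBP, the stem-loop binding protein, stood at 67.8 ± 2.59 FPKM in Y483E and 65.9 ± 3.77 in Y483F. NPAT, the coactivator of HIST transcription, stood at 3.38 ± 0.0488 and 3.55 ± 0.263 FPKM, and CASP8AP2 (FLASH), which acts in 3′ processing, at 8.93 ± 0.589 and 9.16 ± 0.273 FPKM. SNRPB and SNRPE, Sm proteins of the U7 particle, were among the most abundant of the list at 291 ± 6.11 and 104 ± 5.47 FPKM in Y483E and 311 ± 7.78 and 109 ± 1.42 FPKM in Y483F.

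Histone chaperones and import factors gave 11 of 23 genes higher in Y483E, a median of -0.016 and 0 calls in limma. At an unadjusted p under 0.05 were 3 of the 23 (13.0%), close to the 12.2% of all genes. They were ASF1B, HAT1 and RBBP7, which carry or modify new H3 and H4, with log2 differences of 0.12 ± 0.048, 0.12 ± 0.044 and 0.16 ± 0.063 (SE). SSRP1 and SUPT16H, the subunits of FACT, stood at 85.9 ± 2.27 and 76.6 ± 1.84 FPKM in Y483E and 84.1 ± 4.21 and 80.6 ± 5.11 FPKM in Y483F. CENPA, the centromeric H3, stood at 10.2 ± 0.461 and 9.42 ± 0.685 FPKM and overlapped. Of 12 S phase and cell cycle markers, 6 were higher, with a median of 0.0062 and 0 calls in limma. At an unadjusted p under 0.05 were 4 of the 12 (33.3%), namely TOP2A, TYMS and TK1, higher in Y483E by 0.14 ± 0.037, 0.16 ± 0.041 and 0.17 ± 0.063, and E2F1, lower at -0.13 ± 0.052 (log2, SE). In each of these 3 lists edgeR and DESeq2 over all 6 libraries also called 0 genes. In the order processing, chaperones and S phase, limma with array weights called 1 of 19, 3 of 23 and 5 of 12, beside 14.7% of all genes. With library numbers 4 and 5 only, calls by edgeR came to 2 of 19, 5 of 24 and 5 of 12 in this order, beside 15% of all genes. Calls by limma came to 0 of 19, 1 of 23 and 3 of 12, beside 5.71% of all genes.

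The protein-coding genes whose levels followed the summed HIST level most closely over the 6 libraries, among 7006 that averaged 5 FPKM or more, were SOWAHC (r 0.978), AP2A1 (0.973), RPUSD2 (0.966), CRY1 (0.965) and VIRMA (0.963). These are the highest of many correlations over 6 points, and the summed level is mostly HIST1H2BK.

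Reads summed to between 17204498 and 23284592 a library. TNS2 itself stood at 0.948 ± 0.169 FPKM in Y483E and 1.13 ± 0.0534 FPKM in Y483F. Markers of HEK293 were high for IRS4 (152 to 173 FPKM) and VIM (59.7 to 71.5 FPKM), while PAX2 stood at 0.673 to 1.34 FPKM and NEFM at 0.200 to 0.314 FPKM. Of the 6 tested, 5 were higher in Y483E, beside 52.8% of all genes. The median log2 difference of the 6 was 0.17, with 0.03 between the libraries numbered 1 and 0.24 in those numbered 4 and 5. At an unadjusted p under 0.05 in limma were 3 of the 6, beside 12.2% of all genes. The cadherin gene CDH2 stood at 21.5, 21.7 and 23.2 FPKM in Y483E and 18.7, 17.2 and 17.9 FPKM in Y483F. Its log2 difference was 0.29 ± 0.050 (SE). The adjusted p of CDH2 was 0.257 in limma and 0.0037 in DESeq2, where DESeq2 called 1.29% of all genes. The part of these marker differences in the histone values was not tested. The 8 markers of other cell types summed to 0.63 to 0.815 FPKM, nearly all of it COL1A1, with PTPRC, CD3E, INS and HBB at 0.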

How the data were processed

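RNA from 6 libraries, 3 per line, was analysed from 2 tables. The authors deposited FPKM for every gene with its length. For 1652 genes the authors deposited raw read counts, the signal of counts divided by size factors, log2 fold changes and p-values. Tools named without roles, per the submitters' processing notes, were featureCounts 1.5.0-p3, StringTie 1.3.3b, HISAT2 2.0.5, DESeq and DESeq2. The build of the genome is not stated in the sources used here. The protocol names a directional and a non-directional library, so strandedness is not known.

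FPKM times length times a library total, worked out from the listed counts, gave whole reads within 0.01 for 100% of values, equal to the listed counts for all 1652 genes, a match largely built in. The test was limma 3.58.1 (trend) in R 4.3.3 on log2(FPKM + 1) of the 12833 genes that averaged 1 FPKM or more, two-sided, with a Benjamini-Hochberg threshold of 0.05. Fold changes on this scale understate the change of low genes. DESeq2 1.42.0 and edgeR 4.0.16 (TMM scaling, filterByExpr, quasi-likelihood test) took the recovered reads, and all were tested on simulated data.

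The members and gene lists were chosen with earlier results of these data known. Named genes were the variants at 1 FPKM or more, the 4 highest HIST genes of each histone type, the 3 HIST genes with the smallest p in each direction, SLBP, NPAT, CASP8AP2, CENPA, TNS2 and the highest 2 of each list. Members of head-to-head pairs, genes with 0 reads and list genes at an unadjusted p under 0.05 were named after their values were seen. Stem-loops came from GENCODE 29 transcripts, promoters from RefSeq on GRCh38.p14. Alternatives were other pseudocounts (0.1 and 0.5), filters, scalings, weights, terms, tools and leaving out each library.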

Additional observations from a re-analysis of the deposited data

How the results depend on the processing

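In limma, 0 of 12833 genes were called over all 6 libraries, and this count rose to 1888 with array weights and 733 in the libraries numbered 4 and 5 alone. It was 7 with edgeR, 2454 with edgeR in the libraries numbered 4 and 5, 155 with edgeR and a term for number 1 against 4 and 5 (a setting chosen after seeing the data) and 142 with DESeq2. HIST genes called were 2 with array weights and 0 in the other settings. Variants called were 3 with array weights, 5 with edgeR in the libraries numbered 4 and 5, and 0 in the others. The variant median log2 difference was 0.113 with array weights, 0.124 in limma and 0.123 in edgeR in the libraries numbered 4 and 5, and 0.046 to 0.11 when each library was left out, highest without Y483F replicate 1 (0.11) and without Y483E replicate 1 (0.101). The HIST median ranged from -0.0271 to 0.0708 when each library was left out. The causes were not tested.

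With the replicate number as a block, limma called 0 genes and edgeR 6, and no histone gene. The correlations of deviations between libraries with the same number were 0.056, 0.14 and -0.095. Between libraries with different numbers they ran from -0.263 to 0.206. With 3 libraries of each line, these values cannot tell whether libraries with the same number share more than the number.

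These single genes changed sign (log2 values). With quantile normalization H2AFZ was at -0.00638, H3F3A at -0.00214, H3F3B at -0.0108, HIST1H2BN at 0.0229, HIST1H3B at 0.00795 and HIST1H3E at 0.0111. With array weights HIST1H2BC was at 0.0842, HIST1H2BD at -0.179, HIST3H2BB at -0.0797, HIST1H3H at -0.0495, HIST1H4H at -0.113 and NPAT at 0.0126. In the libraries numbered 4 and 5, HIST1H2BD was at -0.106 in limma and -0.142 in edgeR, HIST1H4H at -0.109 and -0.145, HIST3H2BB at -0.0921 and -0.147, and HIST1H2BN at 0.00288 in limma. HIST1H4H was at -0.00712 with median-of-ratios scaling, -0.017 with edgeR, -0.0121 with edgeR and the replicate block, -0.0147 with edgeR and the number term and -0.00808 with DESeq2. With each library left out, CASP8AP2 ranged from -0.0716 to 0.0131, H3F3A from -0.00258 to 0.109, H3F3B from -0.00466 to 0.0541, HIST1H2AH from -0.28 to 0.0482, HIST1H2BC from -0.183 to 0.0475, HIST1H2BN from -0.045 to 0.0449, HIST3H2BB from -0.0238 to 0.175, HIST1H2BD from -0.0521 to 0.26, HIST1H2BK from -0.101 to 0.0332, HIST1H3B from -0.126 to 0.118, HIST1H3E from -0.106 to 0.0236 and HIST1H4H from -0.0805 to 0.0614. Depth limits the 52 HIST genes under 1 FPKM, which rested on 188 to 289 reads a library in all.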

Other observations

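Among HIST genes too low for the limma and edgeR tests, the H4 gene HIST1H4A had 10, 6 and 4 reads in Y483E replicates 1, 2 and 3 and 1, 1 and 4 reads in Y483F. Its neighbour in kind HIST1H4D stood at 0.538, 0.825 and 1.91 FPKM in Y483E and 0.561, 0.356 and 0.315 FPKM in Y483F. Both were picked out after their values were seen. DESeq2 gave unadjusted p of 0.117 and 0.17 for them and no adjusted p.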
